A study of Mus musculus with 8 samples.

Results

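Expression of *Ihh*, the gene of the ligand Indian hedgehog, and of 9 other genes of hypertrophic cartilage was examined in mCherry+CD73+ cells sorted by FACS from the growth plate of Pthrp-mCherry mice. The genes were taken by name: *Ihh*, *Col10a1*, *Mmp13*, *Mef2c*, *Ibsp*, *Spp1*, *Panx3*, *Runx2*, *Runx3*, and *Sp7*. All 10 were among the 16536 genes of the count table, and all 10 passed the filter on low counts that left 15421 genes to be tested. The question was whether the level of *Ihh* changed together with those of the other genes. Mice of 2 groups were compared, with 1 library of total RNA per mouse. DMSO, the vehicle, was given to 4 mice, and SAG, a small-molecule agonist of Smoothened, to the other 4. Injections ran from day P30 through day P36, and the cells were taken at day P38. Every mouse of either group carried the Pthrp-mCherry reporter, in which mCherry is made by cells that express *Pthlh*, and CD73 is the surface protein encoded by *Nt5e*. The labels do not give the sex of each mouse. Each group is therefore a sort on a reporter of resting zone cells and on a surface protein. The paper describes CD73 as marking both resting zone and early proliferative cells of the growth plate. It was used there to leave out mCherry+ articular and perichondrial cells. Hypertrophic cells were not selected for.

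In the growth plate, resting chondrocytes give rise to columns of proliferating cells, which stop dividing, enlarge, and mineralize their matrix as they turn into hypertrophic chondrocytes. Prehypertrophic chondrocytes secrete Indian hedgehog, which sustains PTHrP made by resting cells, and PTHrP in turn delays hypertrophy through its receptor on proliferating and prehypertrophic cells. Runx2, Runx3, and Mef2c are transcription factors that drive hypertrophy, and collagen X, encoded by *Col10a1*, is the defining matrix protein of hypertrophic cells. Mmp13, bone sialoprotein (*Ibsp*), osteopontin (*Spp1*), pannexin 3, and osterix (*Sp7*) belong to hypertrophic cartilage and also to osteoblasts. *Spp1* is expressed by osteoclasts and macrophages too, *Mef2c* by B-lineage and myeloid cells, and *Runx3* by T and myeloid cells.

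RUNX factors are known to act on promoters of hypertrophy genes, and the 250 bases before the start of transcription (RefSeq, GRCm38.p6) were searched on both strands for their core motif, TGTGGT. The table of promoters held 12 promoters of 8 of the genes, and 4 of the 12 held the core, against 14.0% of all 32851 promoters of the same length. The promoters of *Ihh* (chr1:74951673-74951922, minus strand) and *Col10a1* (chr10:34389731-34389980, plus strand) are shown because these 2 genes passed the test, and those of *Mmp13* (chr9:7272264-7272513, plus strand), *Spp1* (chr5:104434861-104435110, plus strand), *Runx2* (chr17:44814628-44814877, minus strand), and *Runx3* (chr4:135120395-135120644, plus strand) because they held the core, marked in capitals on the strand of the gene. Each reads 5′ to 3′ along the gene and ends at the base before the start.
Ihh: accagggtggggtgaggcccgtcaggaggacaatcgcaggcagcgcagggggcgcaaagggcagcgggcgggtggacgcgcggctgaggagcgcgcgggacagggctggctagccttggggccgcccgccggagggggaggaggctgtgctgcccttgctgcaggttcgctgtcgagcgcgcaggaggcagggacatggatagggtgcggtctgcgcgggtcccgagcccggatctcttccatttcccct
Col10a1: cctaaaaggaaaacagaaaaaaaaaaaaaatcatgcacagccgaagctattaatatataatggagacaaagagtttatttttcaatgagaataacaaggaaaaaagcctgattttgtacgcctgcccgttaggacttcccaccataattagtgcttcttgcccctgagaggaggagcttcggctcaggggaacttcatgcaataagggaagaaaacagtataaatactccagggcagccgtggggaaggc
Mmp13: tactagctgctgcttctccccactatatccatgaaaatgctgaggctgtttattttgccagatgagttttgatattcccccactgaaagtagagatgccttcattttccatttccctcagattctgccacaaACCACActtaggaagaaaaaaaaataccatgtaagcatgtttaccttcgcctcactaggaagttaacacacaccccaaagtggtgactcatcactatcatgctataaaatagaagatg
Spp1: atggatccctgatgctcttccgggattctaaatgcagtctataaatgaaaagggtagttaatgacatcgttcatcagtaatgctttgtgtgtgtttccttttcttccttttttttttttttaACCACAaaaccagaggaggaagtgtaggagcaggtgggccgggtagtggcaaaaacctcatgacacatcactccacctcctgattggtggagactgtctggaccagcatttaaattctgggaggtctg
Runx2: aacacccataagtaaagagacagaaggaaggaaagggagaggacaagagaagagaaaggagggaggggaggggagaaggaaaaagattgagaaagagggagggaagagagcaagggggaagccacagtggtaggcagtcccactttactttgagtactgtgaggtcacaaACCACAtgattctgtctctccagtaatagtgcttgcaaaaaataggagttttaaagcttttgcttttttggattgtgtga
Runx3: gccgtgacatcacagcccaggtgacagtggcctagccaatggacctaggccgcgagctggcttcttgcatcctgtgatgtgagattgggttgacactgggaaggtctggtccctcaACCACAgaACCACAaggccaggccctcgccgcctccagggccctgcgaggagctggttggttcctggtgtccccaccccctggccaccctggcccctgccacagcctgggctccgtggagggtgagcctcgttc
The first base of the core lay 118 bases before the start in *Mmp13*, 128 in *Spp1*, 80 in *Runx2*, and 134 and 126 in *Runx3*, and these letters were not in the windows of *Ihh* and *Col10a1*. The 9-base site GACCACCCA of the GLI factors, which carry out Hh signaling, was found in 0 of the 12 promoters and in 0.225% of all. A site of the MEF2 family was found in 0 of the 12 and in 2.92% of all. A match or its absence in this window is a description of the letters and does not show binding.

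Between 24971992 and 46593090 reads were counted on genes per library, and DMSO replicate 4 had the fewest reads and the fewest genes detected (14416, against 15524 to 16285 in the other libraries). Levels are given as CPM, which are counts scaled to a common library size by edgeR's TMM method, and 3 counts corresponded to between 0.067 and 0.114 CPM, a floor that covers counting error only. *Pthlh*, whose reporter was sorted on, was at 14.9 to 22.1 CPM in DMSO-treated and 18.4 to 29.9 CPM in SAG-treated mice. *Nt5e* was at 184 to 270 and 149 to 174 CPM. Chondrocyte markers such as *Col2a1* and *Acan* were abundant in every library, and 8 of 8 neutrophil marker genes were detected in every library too. The median log2 fold change of all tested genes was -0.08, and 54.8% of them lay below 0.

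*Ihh* and *Col10a1* were called lower with SAG, and the other 8 genes lay in the same direction without passing the test. Which genes passed depended on the processing: *Ihh* passed in 8 of 15 alternative fits, *Col10a1* in 6, and *Mef2c* in 7. With edgeR's quasi-likelihood test and Benjamini-Hochberg adjustment over all tested genes, 2 of the 10 genes were lower at an adjusted p under 0.05, where 0.266% of all genes were, and 0 were higher, where 2.62% of all genes were. At an unadjusted p under 0.05, 6 of the 10 were lower (6.5% of all genes) and 0 were higher (9.58% of all genes). The highest SAG-treated mouse was below the lowest DMSO-treated one in 2 of the 10, *Ihh* and *Mef2c*, and in 3.84% of all genes. The median log2 fold change of the 10 genes was -1.29. In sorted cells pooled into a library, fewer cells of a type and less RNA per cell cannot be told apart. Where nothing else is said, adjusted p-values below are from edgeR's test.

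**Figure D1:**
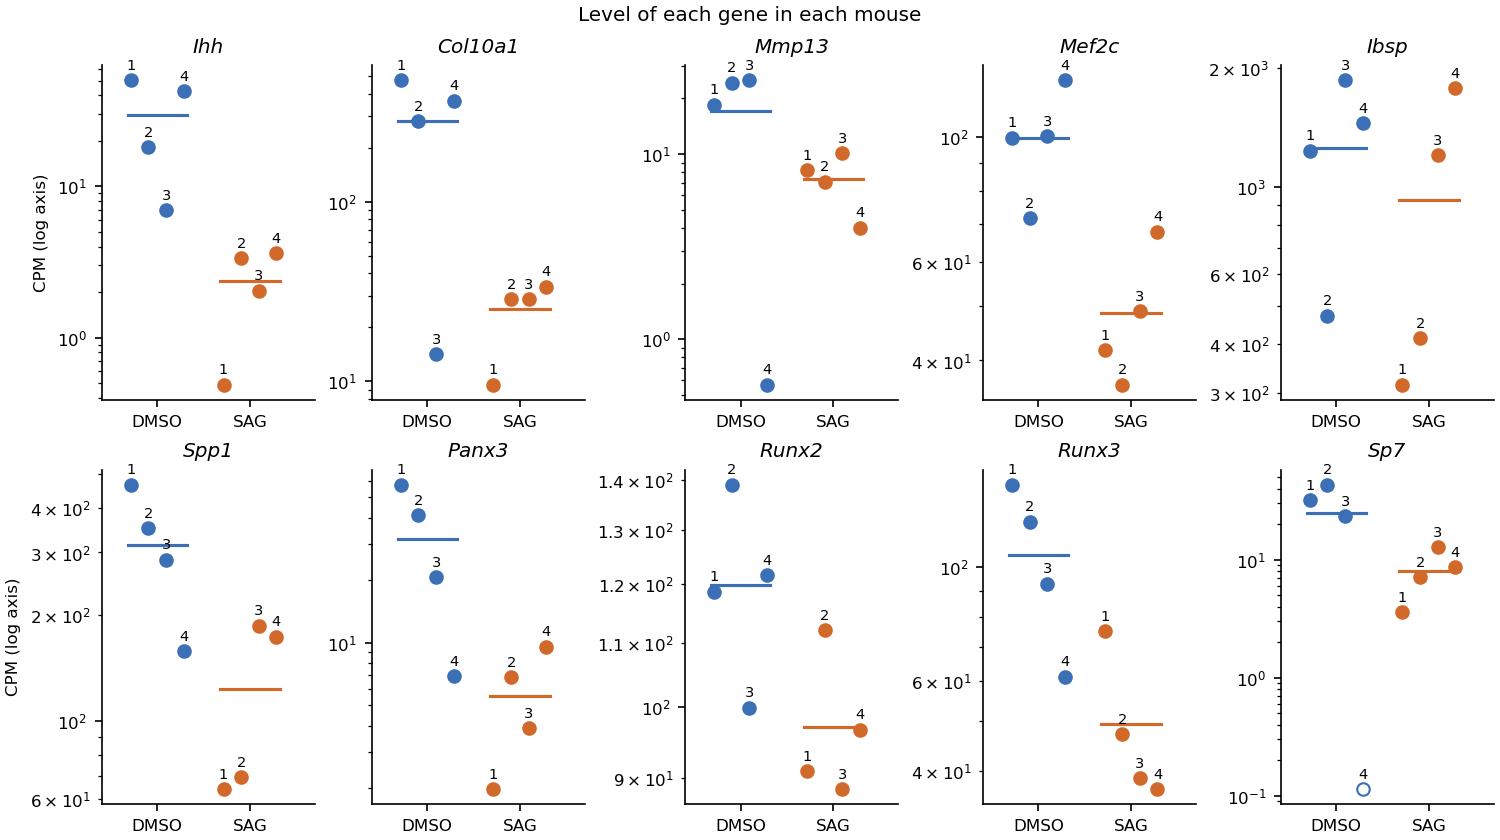
Each panel plots 1 gene, with CPM on a log axis for the 4 DMSO-treated (blue) and 4 SAG-treated (orange) mice. Numbers are replicate numbers, lines are group means, and the hollow point for Sp7 in DMSO replicate 4 is a count of 0 drawn at the level of 3 counts; DMSO replicate 3 is the lowest DMSO-treated mouse for Ihh and Col10a1, and DMSO replicate 4 for Mmp13 and Sp7.

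*Ihh* (ENSMUSG00000006538.12) is a protein-coding gene on the minus strand (GRCm38, chromosome 1, 74945315 to 74951672). It was measured at 50.1, 18.2, 6.97, and 42.6 CPM in DMSO replicates 1 to 4 and 0.489, 3.35, 2.04, and 3.6 CPM in SAG replicates 1 to 4. The groups did not overlap, although the DMSO-treated mice spread widely, with replicate 3 lowest and replicate 1 highest. SAG replicate 1 was the lowest, with 17 counts, so that all libraries were above the floor of 3 counts. Means were 29.4 ± 20.3 and 2.37 ± 1.43 CPM (SD, n = 4 each), DMSO first. The log2 fold change was -3.63 (SE 0.73, adjusted p = 0.0238 from edgeR), which is 12.4-fold lower. With limma voom the adjusted p was 0.0514. With a replicate block in edgeR, which pairs mice by label numbers that do not mark shared animals, it was 0.0778. When mice were left out 1 at a time, the adjusted p from edgeR was under 0.05 in 3 of 8 fits, those without DMSO replicate 3, DMSO replicate 4, or SAG replicate 1.

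*Col10a1* (ENSMUSG00000039462.4) lies on the plus strand of chromosome 10 from 34389981 to 34397085, inside *Nt5dc1* on the opposite strand. Its level was 473, 280, 14.1, and 364 CPM in DMSO replicates 1 to 4 and 9.57, 28.6, 28.7, and 33.7 CPM in SAG replicates 1 to 4. The groups overlapped through DMSO replicate 3, which lay within the range of the SAG-treated mice and was also the lowest DMSO-treated mouse for *Ihh*. The log2 fold change was -3.49 (SE 0.78, adjusted p = 0.0368 from edgeR), from 283 ± 196 to 25.1 ± 10.6 CPM (SD, n = 4 each). The call was lost with limma voom (log2 fold change -2.46, adjusted p = 0.352) and with the replicate block (adjusted p = 0.191), and leaving out mice 1 at a time kept it in 1 of 8 fits, that without DMSO replicate 3. *Nt5dc1* did not pass the test and lay the other way (log2 fold change 0.48, adjusted p = 0.558 from edgeR).

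*Ihh* and *Col10a1* were both called lower with SAG and resembled each other in their levels across the mice. In 7 of the 8 libraries *Col10a1* had between 8.52 and 19.6 counts for each count of *Ihh*, and in DMSO replicate 3 it had 2.02. The deviations of the 2 genes from their group means on the log2 scale had a Pearson's r of 0.85 over the 8 libraries. *Col10a1* took place 141 among the 15420 other genes ordered by this measure for *Ihh*, and *Ihh* took place 227 in the order for *Col10a1*. Without DMSO replicate 3 and SAG replicate 1, the lowest mice of their groups for both genes, r was 0.86 over 6 libraries. The points share their library and its depth. Ordered in the same way for *Sp7*, *Mmp13* had an r of 0.96, and DMSO replicate 4 was far below the others in each of these genes. Between *Ihh* and *Mmp13* r was -0.44, between *Ihh* and *Runx3* -0.39, and between *Ihh* and *Sp7* -0.22. It was positive between *Ihh* and *Runx2* (0.52), *Panx3* (0.39), *Mef2c* (0.34), *Ibsp* (0.31), and *Spp1* (0.26). These values were not computed without DMSO replicate 4, where *Mmp13* and *Sp7* were lowest.

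**Figure D2:**
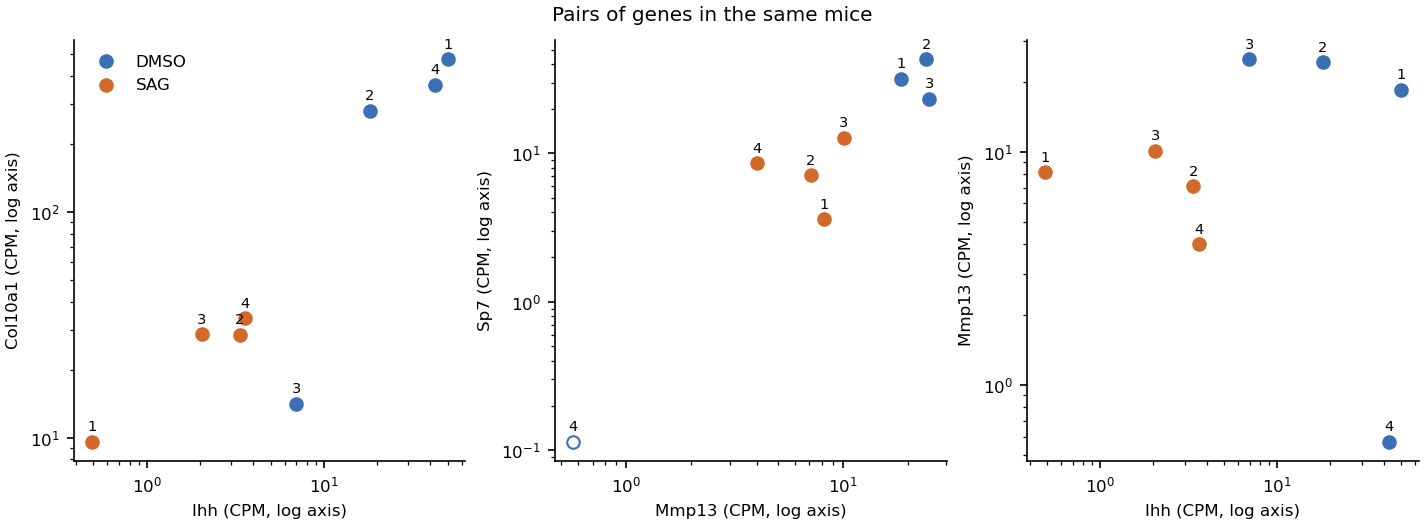
Each panel plots 2 genes against each other in the 8 mice, in CPM on log axes (DMSO blue, SAG orange, numbers are replicate numbers, hollow point a count of 0 drawn at the level of 3 counts). Ihh and Col10a1 are high together in DMSO replicates 1, 2, and 4; Mmp13 and Sp7 are lowest together in DMSO replicate 4, where Ihh is at 42.6 CPM.

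The 3 transcription factors that drive hypertrophy, *Mef2c*, *Runx3*, and *Runx2*, had negative log2 fold changes that did not pass the test. *Mef2c* (chromosome 13, 83504034 to 83667080) was at 99.6, 71.7, 100.3, and 126 CPM in DMSO replicates 1 to 4 and at 41.7, 36.2, 48.9, and 67.9 CPM in SAG replicates 1 to 4. The groups did not overlap, with SAG replicate 4 just under DMSO replicate 2. The log2 fold change of *Mef2c* was -1.03 (SE 0.25), and its adjusted p of 0.0508 from edgeR lay just above the threshold. It passed with DESeq2, limma voom, plain library size, no filter, a minimum of 10 counts in every library, the replicate block, and without DMSO replicate 4, 7 of the 15 alternatives. *Runx3* (chromosome 4, 135120652 to 135177990) was at 145, 123, 92.9, and 61.1 CPM with DMSO and at 75, 47.2, 38.7, and 36.9 CPM with SAG. SAG replicate 1 lay above DMSO replicate 4, and the log2 fold change was -1.09 (SE 0.31, adjusted p = 0.0859 from edgeR). *Runx3* passed in 5 of the 15 alternatives. These were DESeq2, limma voom, the replicate block (adjusted p = 0.0423 from edgeR), and the fits without DMSO replicate 4 or SAG replicate 1. *Runx2* (chromosome 17, 44495987 to 44814797), the principal regulator of hypertrophy and of osteoblasts, varied least of the 10 genes, with 119, 139, 99.9, and 122 CPM against 90.9, 112, 88.6, and 96.7 CPM. Its log2 fold change was -0.30 (SE 0.18, adjusted p = 0.451 from edgeR), with overlapping groups. Antisense genes overlap *Runx2* and *Runx3*, and whether strand was used in counting was not given in the sources used here.

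*Sp7*, which encodes the transcription factor osterix (chromosome 15, 102356606 to 102367182), depended on DMSO replicate 4. Its level was 31.8, 43.1, and 23.4 CPM in DMSO replicates 1 to 3, while DMSO replicate 4 had 0 counts, which allows up to 0.114 CPM. In SAG replicates 1 to 4 it was 3.59, 7.11, 12.8, and 8.58 CPM, below DMSO replicates 1 to 3 and above DMSO replicate 4. The log2 fold change was -1.62 (SE 1.08, adjusted p = 0.529 from edgeR) with all mice and the gene was 4.01-fold lower (adjusted p = 0.0111 from edgeR) without DMSO replicate 4. Of 14 alternative fits of *Sp7*, this 1 alone had an adjusted p under 0.05.

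*Mmp13*, the collagenase of late hypertrophic cartilage (chromosome 9, 7272514 to 7283331), had the same arrangement. It was at 18.4, 24.2, and 24.9 CPM in DMSO replicates 1 to 3, at 0.569 CPM (15 counts) in DMSO replicate 4, and at 8.16, 7.11, 10.1, and 4.01 CPM in SAG replicates 1 to 4. The log2 fold change was -1.22 (SE 0.78, adjusted p = 0.51 from edgeR), and without DMSO replicate 4 it was -1.59 (adjusted p = 0.0215 from edgeR). Of 15 alternative fits of *Mmp13*, this 1 alone had an adjusted p under 0.05. *Panx3*, the gene of a channel protein (chromosome 9, 37659902 to 37669235), had the lowest log2 fold change after *Ihh* and *Col10a1*. Its level was 57.6, 41.0, 20.7, and 6.91 CPM with DMSO and 1.98, 6.82, 3.89, and 9.56 CPM with SAG, so that SAG replicate 4 lay above DMSO replicate 4. The log2 fold change was -2.50 (SE 0.65, adjusted p = 0.0669 from edgeR), and -2.81 (adjusted p = 0.0062 from edgeR) without DMSO replicate 4.

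Of the 2 matrix glycoproteins, whose genes *Ibsp* and *Spp1* lie 123648 bases apart on chromosome 5, neither passed the test. *Spp1* (104435118 to 104441050) was at 467, 352, 286, and 157 CPM with DMSO and at 64.1, 69.2, 186, and 173 CPM with SAG. SAG replicates 3 and 4 lay above DMSO replicate 4, and the log2 fold change was -1.36 (SE 0.41, adjusted p = 0.107 from edgeR). *Ibsp* (104299171 to 104311469) was at 1234, 472, 1856, and 1447 CPM with DMSO and at 316, 413, 1201, and 1774 CPM with SAG. Its groups overlapped over most of their range, and the log2 fold change was -0.44 (SE 0.53, adjusted p = 0.775 from edgeR). *Ibsp* had 1.34 to 9.19 counts for each count of *Spp1* with DMSO and 4.92 to 10.2 with SAG.

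With DESeq2's Wald test, 6 of the 10 genes were lower at an adjusted p under 0.05 (*Ihh*, *Col10a1*, *Mef2c*, *Spp1*, *Panx3*, and *Runx3*), where 3.23% of the genes given an adjusted p were. With limma voom and sample quality weights, 4 were lower (*Mef2c*, *Spp1*, *Panx3*, and *Runx3*), where 2.58% of all genes were. Without DMSO replicate 4, 7 were lower in edgeR (all but *Col10a1*, *Ibsp*, and *Runx2*), where 2.17% of all genes were, and the number of all genes called lower was 343 in place of 41. *Ibsp* and *Runx2* had an adjusted p under 0.05 in 0 of the 15 alternatives. In DMSO replicate 4, *Col2a1* (32463 CPM) and *Acan* (2566 CPM) were lower than in the other DMSO-treated mice. Most erythroid and B-lineage markers were highest of all mice there, such as *Hba-a2* (4942 CPM) and *Pax5* (89.9 CPM), but not *Klf1* and *Vpreb1*. Whether this bears on the calls was not tested.

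For a rough comparison between genes, levels were divided by the joined length of all annotated exons of each gene. This length was 15.7 kb for *Mef2c*, with 27 coding transcripts, and 8.84 kb for *Runx2*, with 9. It was 3.05 kb for *Ihh*, with 1 coding transcript, so the order depends in part on the annotation. On this scale *Ibsp* was the highest of the 10 with DMSO (605 ± 281 CPM per kb; SD, n = 4), followed by *Spp1* (192 ± 78.4), *Col10a1* (90.4 ± 62.6), and *Runx3* (21.1 ± 7.30). *Runx2* followed at 13.6 ± 1.81 CPM per kb, *Ihh* at 9.66 ± 6.64, *Panx3* at 9.18 ± 6.49, *Sp7* at 7.23 ± 5.37, *Mmp13* at 6.38 ± 4.25, and *Mef2c* at 6.33 ± 1.41 (SD, n = 4). The ranges of every pair of neighbors in this order overlapped. With SAG, *Ibsp* (448 ± 334 CPM per kb) and *Spp1* (74.7 ± 39.7) were still the highest and did not overlap each other or the genes below them. *Col10a1* lay below *Runx2* and *Runx3* at 8.03 ± 3.40 CPM per kb, and *Ihh* was the lowest of the 10 at 0.778 ± 0.469 (SD, n = 4).

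Whether *Ihh* fell more than each other gene was tested on the log2 difference between the 2 genes within each mouse, by an exact 2-sided permutation test over the 70 assignments of mice to groups, which cannot give a p below 0.0286. The difference was -3.26 on the log2 scale against *Runx2*, with no overlap between the groups (exact permutation p = 0.0286, the smallest possible, and 0.103 when adjusted over the 9 differences). It was -2.94 against *Ibsp*, -2.52 against *Mef2c*, -2.48 against *Runx3*, and -2.14 against *Spp1*, each with a permutation p of 0.0571. It was -3.76 against *Sp7* (exact permutation p = 0.171) and -3.18 against *Mmp13* (exact permutation p = 0.143), and without DMSO replicate 4 it was -1.14 and -1.59. The value against *Sp7* also moved to -4.29 with a prior count of 0.5, since DMSO replicate 4 had 0 counts of *Sp7*. Against *Panx3* it was -1.23 (exact permutation p = 0.257) and against *Col10a1* -0.73 (exact permutation p = 0.429). All 9 differences were negative and 0 passed after adjustment, so an unequal change was not shown for any pair, nor was an equal one.

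Chondrocyte markers were lower in the same libraries, and the levels are given against them here. All 15 genes of a list of chondrocyte markers had negative log2 fold changes, between -1.99 and -0.81 with a median of -1.02. In edgeR, 14 of them had an unadjusted p under 0.05, where 6.5% of all genes were lower, but 0 had an adjusted p under 0.05. *Col2a1*, the most abundant, was at 68832, 59725, 53759, and 32463 CPM in DMSO replicates 1 to 4 and 31042, 11759, 28779, and 34149 CPM in SAG replicates 1 to 4 (log2 fold change -1.02, adjusted p = 0.158 from edgeR). *Cnmd* and *Col11a1*, the next most abundant, had -0.81 and -0.91. *Chad* had -1.39, *Col9a1*, *Col9a2*, and *Col9a3* had -1.09, -1.21, and -1.03, and *Hapln1*, *Comp*, *Col11a2*, and *Acan* had -1.03, -0.99, -0.99, and -0.86. *Matn1* (-1.99, adjusted p = 0.0543 from edgeR), *Matn3* (-1.10), and *Snorc* (-0.89) had groups that did not overlap. The summed level of the list was between 51163 and 120949 CPM with DMSO and between 20942 and 58500 CPM with SAG.

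Relative to the mean log2 level of these markers in the same mouse, *Ihh* was lower with SAG by a difference of -2.45 on the log2 scale, *Col10a1* by -1.72, and *Panx3* by -1.22. The exact 2-sided permutation p was 0.0571 for *Ihh*, 0.257 for *Col10a1*, and 0.171 for *Panx3*, and 0 of the 10 genes passed before or after adjustment (adjusted p = 0.571 for *Ihh*, permutation). Leaving out mice 1 at a time, the difference of *Col10a1* ranged from -2.92 (DMSO replicate 3 left out) to -1.04 (DMSO replicate 4 left out), and that of *Panx3* was -0.71 without SAG replicate 1. *Spp1* differed by -0.31, *Runx3* by 0.03, *Mef2c* by 0.07, *Ibsp* by 0.49, and *Runx2* by 0.81. The difference of *Runx2* was 1.11 without DMSO replicate 4 (unadjusted exact permutation p = 0.0286, the smallest possible) and 0.41 without SAG replicate 2. *Mmp13* and *Sp7* had positive differences of 0.73 and 1.30, which became -0.27 and -0.72 without DMSO replicate 4. The log2 level of *Spp1* relative to the markers was within -2.77 and -2.47 in the 4 DMSO-treated mice, and that of *Runx3* within -4.39 and -4.05. Differences relative to a list of 10 tested osteoblast genes are given as values without a test. They were -3.05 for *Ihh*, -2.32 for *Col10a1*, and -1.82 for *Panx3*. *Col1a1*, a gene of this list, differed widely between the DMSO-treated mice (values below).

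**Figure D3:**
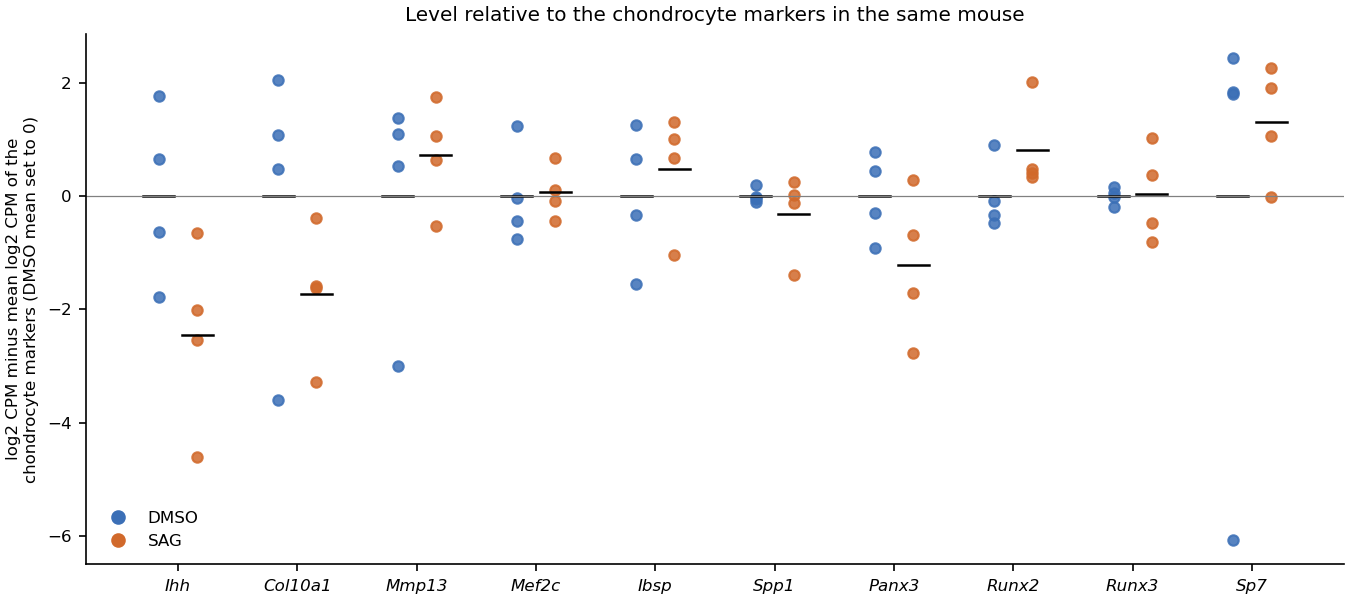
For each gene the log2 CPM minus the mean log2 CPM of the 15 chondrocyte markers is plotted per mouse (DMSO blue, SAG orange), shifted so that the mean of the DMSO-treated mice is 0; black lines are group means. The mean lies below 0 with SAG for Ihh (-2.45), Col10a1 (-1.72), Panx3 (-1.22), and Spp1 (-0.31), and the groups of all 10 genes overlap.

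In a list of 18 other genes of hypertrophic or mineralizing cartilage, 16 had negative log2 fold changes, with a median of -0.69, but 0 passed the test at an adjusted p under 0.05. At an unadjusted p under 0.05 in edgeR, 5 were lower (6.5% of all genes) and 1 was higher (9.58% of all genes). *Alpl*, the tissue-nonspecific alkaline phosphatase of mineralizing cells, was at 356, 296, 262, and 169 CPM with DMSO and 49.6, 66.7, 128, and 166 CPM with SAG. Its groups did not overlap, and the log2 fold change was -1.40 (SE 0.37, adjusted p = 0.0671 from edgeR). *Pth1r*, the PTHrP receptor, was at 274, 218, 132, and 69.9 CPM against 84.0, 42.1, 78.4, and 75.3 CPM (log2 fold change -1.31, adjusted p = 0.0928 from edgeR). The homeobox gene *Dlx5* had -1.37, *Foxa3*, a forkhead gene whose groups did not overlap, -1.12, and the membrane-bound protease gene *Mmp14* -0.87 (adjusted p from edgeR 0.155, 0.257, and 0.204). *Foxa2* had the lowest log2 fold change, -1.86 (SE 1.84), with 0 CPM in DMSO replicate 4 and in SAG replicates 3 and 4. *Phospho1*, a phosphatase gene of mineralization, lay the other way at 77.5, 45.4, 46.3, and 48.7 CPM with DMSO and 58.3, 90.5, 77.3, and 111 CPM with SAG (log2 fold change 0.63, adjusted p = 0.248 from edgeR). The abundant genes *Enpp1* (-0.80) and *Vegfa* (-0.20) did not pass either.

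**Figure D4:**
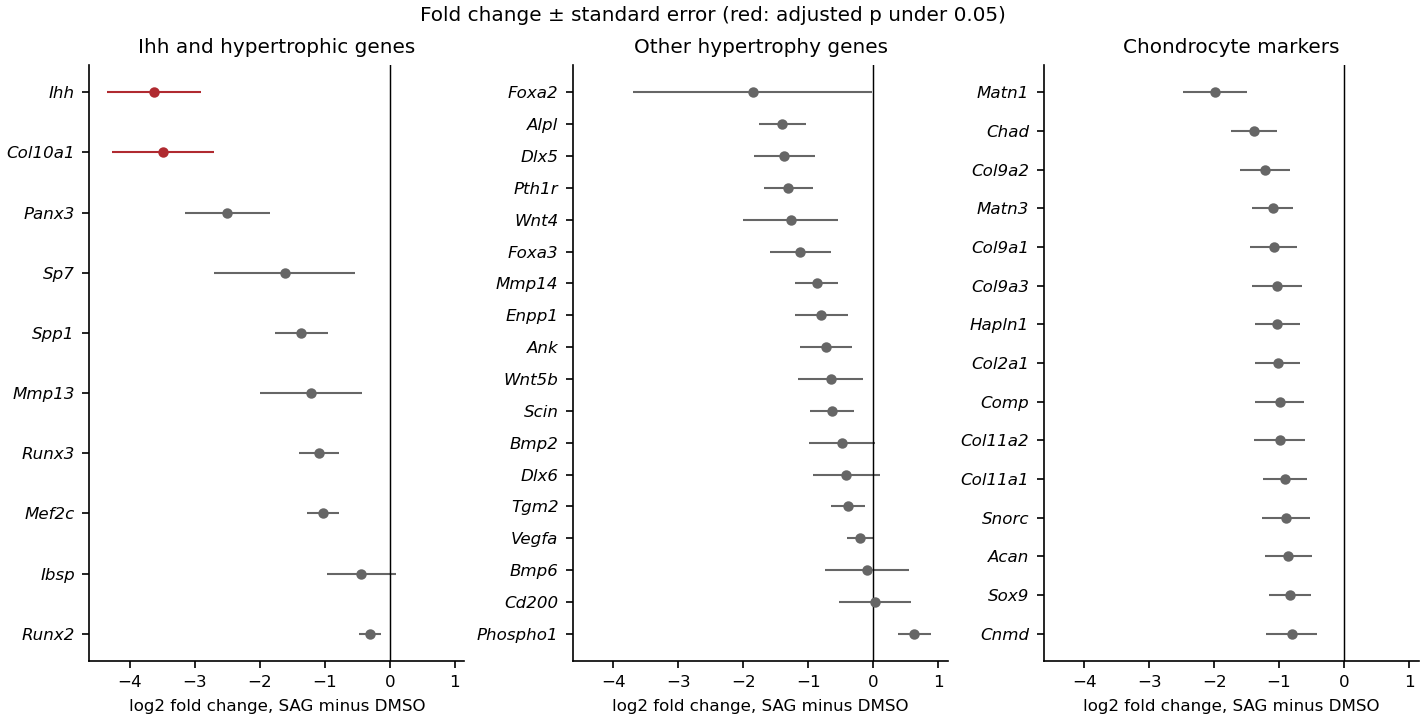
Log2 fold changes (SAG minus DMSO) with standard errors from edgeR are plotted for the 10 genes, 18 other hypertrophy genes, and 15 chondrocyte markers, each panel ordered by size, with genes at an adjusted p under 0.05 in red. Ihh (-3.63) and Col10a1 (-3.49) are red, and the chondrocyte markers lie between -1.99 and -0.81.

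Among 15 regulators known to restrain or promote hypertrophy, 11 had negative log2 fold changes, with a median of -0.38, and 0 passed the test. At an unadjusted p under 0.05 in edgeR, 5 were lower (6.5% of all genes) and 0 higher (9.58% of all genes). The 5 were the cartilage transcription factors *Sox9* (-0.83), *Sox5* (-0.84), and *Sox6* (-0.80), the BMP effector *Smad5* (-0.67), and the FGF receptor *Fgfr3* (-0.93, the lowest). *Smad5* and the kinase gene *Sik3* (-0.26) had groups that did not overlap. *Pthlh* had the highest log2 fold change, 0.37 (SE 0.28, adjusted p = 0.606 from edgeR), with overlapping groups, and *Hif1a*, the hypoxia regulator and among the most abundant, had -0.34.

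Markers of other cells moved in these libraries in both directions. Of all tested genes, 2.62% were higher and 0.266% lower at an adjusted p under 0.05 in edgeR. At an unadjusted p under 0.05, 9.58% were higher and 6.5% lower. The 8 neutrophil markers were all higher with SAG (8 of 8 at an adjusted p under 0.05 in edgeR, median log2 fold change 2.02), and their summed level was between 4499 and 13025.5 CPM with DMSO and between 25483.5 and 42739 CPM with SAG. Of 7 tested B-lineage markers, 2 were lower at an adjusted p under 0.05 in edgeR (*Pax5* -3.61 and *Cd79a* -2.67), with a summed level of 75.6 to 323 CPM against 19.2 to 42.8 CPM. The other 5, *Cd79b* (-3.15), *Ebf1* (-1.57), *Vpreb3* (-3.33), *Ms4a1* (-3.07), and *Blnk* (-2.31), had an unadjusted p under 0.05 in edgeR. The 6 tested osteoclast markers were divided, with 3 log2 fold changes below 0 and 3 above. *Mmp9*, which neutrophils also express, was higher (2.24, adjusted p = 0.0102 from edgeR), at 152 to 323 CPM with DMSO and 727 to 1314 CPM with SAG, and made up most of the summed level of the list, 207 to 423 CPM against 810 to 1411 CPM. *Acp5*, which encodes the tartrate-resistant acid phosphatase of osteoclasts, lay the other way (-2.14, adjusted p = 0.173 from edgeR), with 64.9 CPM in DMSO replicate 4 and 3.56 to 10.1 CPM in the other 7 mice. *Itgb3* had groups that did not overlap, at 3.07 to 38.3 CPM with DMSO and 39.2 to 61.2 CPM with SAG (adjusted p = 0.356 from edgeR). Osteoblast markers, of which 0 of 10 passed, summed to 1528 to 9362 CPM with DMSO and 1751 to 4050 CPM with SAG. *Bglap* and *Smpd3* among them had an unadjusted p under 0.05 in edgeR (log2 fold changes -2.63 and -0.79), and *Col1a1* was at 5971 CPM in DMSO replicate 1 against 535 to 832 CPM in the other DMSO-treated mice. Macrophage markers (0 of 8 passed) summed to 218 to 460 and 281 to 466 CPM, and T and NK cell markers (0 of 6) to 42.4 to 86.4 and 44.0 to 52.7 CPM. Of the 6 tested T and NK cell markers, 2 had log2 fold changes below 0 and 4 above. *Cd3e*, at 0 to 2 counts in the DMSO-treated mice, had 5.54 (unadjusted p = 0.0097 from edgeR), with groups that did not overlap. *Cd3d* had -0.85 (unadjusted p = 0.0333 from edgeR). Erythroid (0 of 8) and endothelial markers (0 of 5) summed to 1000 to 9033 and 31.8 to 94.7 CPM with DMSO and to 483 to 5301 and 31.6 to 67.8 CPM with SAG. The part of these cells in the levels of *Mef2c*, *Runx3*, *Spp1*, and the other genes was not tested.

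The 5 genes with a mean count of at least 50 whose deviations from the group means were most like those of *Ihh* over the 8 libraries were *Mrgpra2a* (r = 0.99), *P2ry6* (0.97), *Tbc1d14* (0.97), *Map4* (0.97), and *Ankib1* (0.96). For *Col10a1* they were *Nle1* (0.98), *Paqr5* (0.98), *Rer1* (0.98), *Caln1* (0.98), and 1700057G04Rik (0.97). Of these 10, *Paqr5* had the lowest log2 fold change, -1.79 (adjusted p = 0.0756 from edgeR), *Mrgpra2a* had 2.84 (adjusted p = 0.322 from edgeR), and 0 had an adjusted p under 0.05. With 8 libraries and 15420 genes to choose from, values of r near 1 are reached by many genes, and these are given as a description.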

How the data were processed

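Libraries of total RNA came from 8 mice, 4 per treatment. The methods date the injections 1 day later than the design text. The authors deposited raw counts per gene and mouse, without normalization, and the submitters' processing notes name kallisto, DESeq2, and GRCm38. Strand settings were not given in the sources used here. Libraries were matched to groups by their labels. Counts were tested in R 4.3.3 with edgeR 4.0.16 (filterByExpr, TMM, robust quasi-likelihood test, Benjamini-Hochberg adjustment over 15421 genes, threshold 0.05). The standard error is the log2 fold change divided by the square root of the F statistic. Values on the log2 scale used a prior count of 2. Single values were compared by exact 2-sided permutation tests. DESeq2 1.42.0, limma 3.58.1 (voom), other scalings and filters, a replicate block, and each mouse left out in turn were alternatives. The fit was tested on simulated data, where it missed most of the smaller changes. A gene that did not pass is therefore not shown to be unchanged. Coordinates and exon lengths are from GENCODE M21. The genes were given by name, and from the lists of other hypertrophy genes and of regulators those with an unadjusted p under 0.05, non-overlapping groups, the extreme fold changes, or the highest levels were named. Cell type markers were summarized by list, with examples. The genes and lists were chosen with earlier results of these data known. Each library is a different mouse, and p-values measure the spread between mice. A marker of the B-lineage list is not reported here, and the list was counted without it.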

Additional observations from a re-analysis of the deposited data

Results flagged for a closer look

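Within groups of 4 mice, the gap of the most distant mouse to its nearest neighbor was compared with Dixon's 95% critical value for 4 samples, as a share of the range of the group on the log2 CPM scale. Of 28 groups tested (10 genes and 4 marker list means, in 2 treatments), 5 had a mouse past that value, where chance gives about 1.4. *Sp7* in DMSO replicate 4 had a ratio of 0.909, at a count of 0, and *Mmp13* in the same mouse had 0.918, at 0.569 CPM. *Col10a1* in DMSO replicate 3 had 0.85, at 14.1 CPM against 280 CPM in the next mouse. *Col10a1* in SAG replicate 1 had 0.868, at 9.57 CPM against 28.6 CPM. The mean of the list of other hypertrophy genes in SAG replicate 2 had 0.861, at 3.74 against 4.43 on the log2 scale.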

How the results depend on the processing

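The fold changes of the 10 genes were negative under all 149 alternatives that gave a value, and *Sp7* gave none with a minimum of 10 counts in every library, since it has a count of 0. The cause of the changes below was not tested. *Ihh* kept its direction everywhere. It had an adjusted p above 0.05 with limma voom (log2 fold change -3.20) and the replicate block (-3.42), and its log2 fold change was between -3.99 and -3.24 when mice were left out 1 at a time, with calls in 3 of 8 fits. The number of the 10 genes called lower, 2, became 6 with DESeq2, 4 with limma voom, and 4 with a minimum of 10 counts, was 2 other genes (*Mef2c* and *Runx3*) with the replicate block, and lay between 0 and 7 when mice were left out, 7 being without DMSO replicate 4 and 0 without DMSO replicate 1 or 2 or SAG replicate 2, 3, or 4. It was 0 in the higher direction throughout. Among all genes, 390 were lower with DESeq2, 398 with limma voom, 87 with the minimum of 10 counts, and 18 with the replicate block, in place of 41, and 797 and 995 were higher with DESeq2 and limma voom, in place of 404. Leaving out mice gave 4 to 343 lower and 80 to 1017 higher genes, both highest without DMSO replicate 4.

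The replicate numbers of the labels do not mark shared animals. Deviations of same-numbered mice across genes had correlations of 0.12, 0.02, 0.02, and 0.01, so the numbers were not taken to pair them. The 9 differences between *Ihh* and another gene kept their sign with a prior count of 0.5, DESeq2's size factors, and each mouse left out, where the exact permutation p (smallest possible 0.0286) went under 0.05 once each for *Mef2c* and *Runx3* and above it in 2 of 8 fits for *Runx2*. Relative to the chondrocyte markers, *Ihh* (-3.06 to -1.73 when mice were left out), *Col10a1* (-2.92 to -1.04), *Panx3* (-1.73 to -0.71), and *Runx2* (0.41 to 1.11) kept their sign. With *Col2a1* and *Acan* alone, *Mef2c* reversed to -0.0626 and *Runx3* to -0.10. When mice were left out, the differences ranged from -0.27 to 1.19 for *Mmp13*, -0.19 to 0.48 for *Mef2c*, -0.0345 to 0.992 for *Ibsp*, -0.502 to 0.0473 for *Spp1*, -0.30 to 0.31 for *Runx3*, and -0.72 to 2.12 for *Sp7*. The lowest libraries had 0 counts of *Sp7*, 15 of *Mmp13*, and 17 of *Ihh*, which limits the precision of these values.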
